A study of Mus musculus with 22 samples.

Results

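The Hox genes of mouse embryonic fibroblasts (MEFs) are described here by cluster and by paralog group. The members are all gene entries of the deposited RNA tables whose symbol is Hox followed by a cluster letter (a, b, c or d) and a number. That gave 39 of 21050 gene entries, 38 of the 16271 genes listed in all 4 libraries and 35 of the 11149 genes with enough signal to test. The missing member, Hoxb1, was at 0.0109 RPKM in 1 library and listed at 0 in another, and had no row in the other two.

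The study compared fibroblasts with and without Lsh, a SNF2-family chromatin remodeller encoded by Hells that is needed for normal DNA methylation. WT cells were Lsh+/+ and KO cells were Lsh-/-, a deletion carried by the whole embryo. Both were primary cultures from the body of C57BL/6 embryos at E13.5, used at passage 3 to 4. Of the 22 samples, the 4 RNA libraries (WT1, WT2, KO1 and KO2, after genotype and replicate number) are used, and the other 18 are not analysed here. The labels call them biological replicates and do not say which embryo, sex, litter or day each came from, so p-values concern only the spread between these libraries.

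Hox genes encode homeodomain transcription factors that set position along the head-to-tail axis and along the limb. They lie in 4 clusters, and within each cluster the low-numbered (anterior) genes at one end are switched on early and far forward, while the high-numbered (posterior) genes at the other end come on later and nearer the tail or the limb tip. Genes with the same number in different clusters are paralogs and share much of their function, and Polycomb complexes keep the genes that are off in a given region silent. Fibroblasts in culture keep much of the Hox pattern of the body site they were taken from. In the text, anterior means paralog groups 1 to 3, central 4 to 8 and posterior 9 to 13.

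The unit is RPKM, the reads of a transcript divided by its length in kilobases and by the library's mapped reads in M (mega). It adjusts for length and depth only, and results with median-ratio scaling between libraries are given as an alternative. The libraries held 132.2, 176.6, 122.5 and 136.1 M mapped reads in the order WT1, WT2, KO1, KO2, and 1 RPKM is 132.2, 176.6, 122.5 and 136.1 reads per kilobase. Hells was at 0.865 and 1.06 RPKM in WT and at 0.430 and 0.550 RPKM in KO, and the labels do not give the deleted part of the gene, so these values do not test the genotype. Where 4 values follow each other, they are in that order of libraries. Gapdh was listed at 0 to 0.298 RPKM, so a value near 0 is not by itself a silent gene. The number 1 libraries have 26886 transcript rows and those of number 2 have 21136, and libraries of the same number resembled each other more than libraries of the same genotype. Pearson's r of the log2 levels over the tested genes was 0.980 and 0.983 within a number and 0.893 and 0.897 within a genotype. Every difference is therefore also given within each number, KO1 against WT1 and KO2 against WT2. Of 12 fibroblast markers, with a summed level of 2680 to 3240 RPKM, Vim, Col1a1, Col1a2, Fn1 and Thy1 were above 200 RPKM in every library. Others were low in number 1: Lum was at 0.718, 108, 1.27 and 105 RPKM, Pdgfra at 0.987, 23.2, 2.46 and 23.1 RPKM and Dcn at 3.88, 121, 13.9 and 129 RPKM. Their part in the Hox values was not tested.

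All 4 clusters were transcribed in these cells, each with its own range of active genes. In coordinates of the files' build, mm9, the outermost members span chr6:52105367-52210875 for Hoxa (11 members), chr11:96055676-96229568 for Hoxb (10), chr15:102751563-102867284 for Hoxc (9) and chr2:74506368-74603200 for Hoxd (9). At 1 RPKM or more, 26 members were present in WT1, 28 in WT2, 22 in KO1 and 29 in KO2. The Hoxb cluster was active from Hoxb2 to Hoxb9 and the Hoxc cluster from Hoxc4 to Hoxc10 in every library, so neither outer limit moved with genotype or number. In Hoxa the most posterior member at that level was Hoxa11 in both WT libraries, Hoxa10 in KO1 and Hoxa13 in KO2. In Hoxd it was Hoxd13, the last gene of the cluster, in all 4. Some of these limits rest on values close to 1 RPKM. Hoxd13 was at 1.01 RPKM in KO1, against 7.89 RPKM in WT1, and Hoxd10 to Hoxd12 were below 1 RPKM in KO1. Hoxa13 was at 1.07 RPKM in KO2, against 0.827 RPKM in WT2, and Hoxa11 at 0.913 RPKM in KO1.

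**Figure D1:**
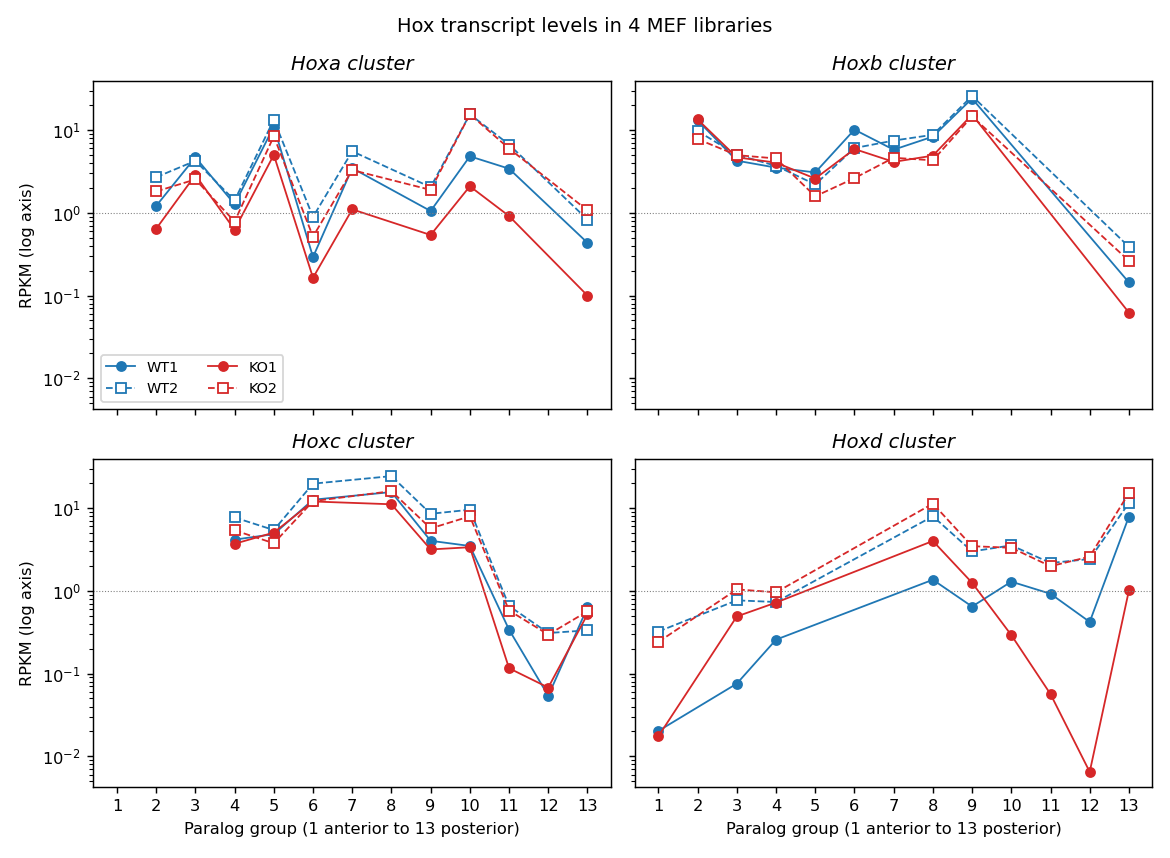
RPKM of Hox members in each of the 4 libraries, one panel per cluster, by paralog group from anterior to posterior on a log axis, with a dotted line at 1 RPKM. Hoxb9 and Hoxc8 are the highest members in WT1 and WT2, and Hoxd10 to Hoxd13 are lowest in KO1.

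The highest Hox level belonged to Hoxb9, a gene of the thoracic region, at 24.0 and 25.8 RPKM in WT and 15.3 and 14.6 RPKM in KO. Hoxc8, a patterning gene of the lower thorax, followed at 15.6 and 24.3 RPKM in WT and 11.1 and 16.0 RPKM in KO, and was the highest member in KO2. In both WT libraries the central genes together held the largest share of Hox transcripts. They summed to 85.7 and 115 RPKM, against 25.0 and 23.3 RPKM for the anterior and 53.6 and 93.2 RPKM for the posterior genes. By cluster, Hoxb held 44.0% of the summed Hox level in WT1 and 29.8% in WT2, and Hoxd was the smallest with 7.84% and 14.0%. The lowest members present in all libraries were Hoxd1, at most 0.322 RPKM, Hoxc12, at most 0.309 RPKM, and Hoxb13, at most 0.388 RPKM. These 3 did not pass the filter.

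The comparison of KO with WT asks how Hox expression differed in cells without Lsh. Summed over all members, the Hox level was 164 and 232 RPKM in the WT libraries and 118 and 180 RPKM in the KO libraries. KO was thus at 0.718 of WT within number 1 and 0.778 within number 2. In bulk RNA, fewer cells of a type and less RNA per cell cannot be told apart. Of the 35 tested members, 21 (60.0%) were lower in KO within both numbers, 6 (17.1%) were higher and 8 were split. Among all tested genes the shares were 31.4% lower and 22.5% higher. No member passed the filter through one genotype alone. Over the 38 members listed in all libraries, with no filter, 23 (60.5%) were lower in both numbers, 6 were higher and 9 were split, against 28.9% lower and 23.0% higher over all genes.

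By limma's moderated test with genotype alone, no Hox member was called, and 0.00% of all tested genes were. Hoxb8 and Hoxb9 were the 2 members with an unadjusted limma p under 0.05, against 41 genes (0.368%) in all, and every adjusted p was 1.00. When the number is added as a term, limma sets the spread between the numbers apart. It then called 0.673% of all genes (0.377% higher, 0.296% lower), again with no Hox member. In that fit 16 of the 35 members had an unadjusted p under 0.05, against 9.10% of all genes, and the lowest limma adjusted p of a member was 0.0511, for Hoxb6. With median-ratio scaling added to that fit, 4 members were called lower in KO, against 0.601% of all genes: Hoxb6 (adjusted p = 0.0197), Hoxa7 (0.0207), Hoxa5 (0.0243) and Hoxb8 (0.0285). The differences described in the following are measured values that did not pass the test with genotype alone.

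The median KO minus WT difference over the 35 members, on the log2(RPKM + 0.5) scale, was -0.45 within number 1, -0.25 within number 2 and -0.38 in the pooled fit. Over all tested genes it was -0.069, 0.018 and -0.021. The pooled Hox median depended on single libraries: it was -0.01 without KO1, -0.07 without WT2, -0.68 without KO2 and -0.69 without WT1. The 2 KO libraries both lay below the 2 WT libraries for 9 of 35 members (25.7%), against 7.32% of all tested genes. They were Hoxa3, Hoxa4, Hoxa5, Hoxa7, Hoxb6, Hoxb7, Hoxb8, Hoxb9 and Hoxc6, of which 7 are central genes. Hoxb4 alone lay above WT in both KO libraries, against 6.10% of all tested genes.

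**Figure D2:**
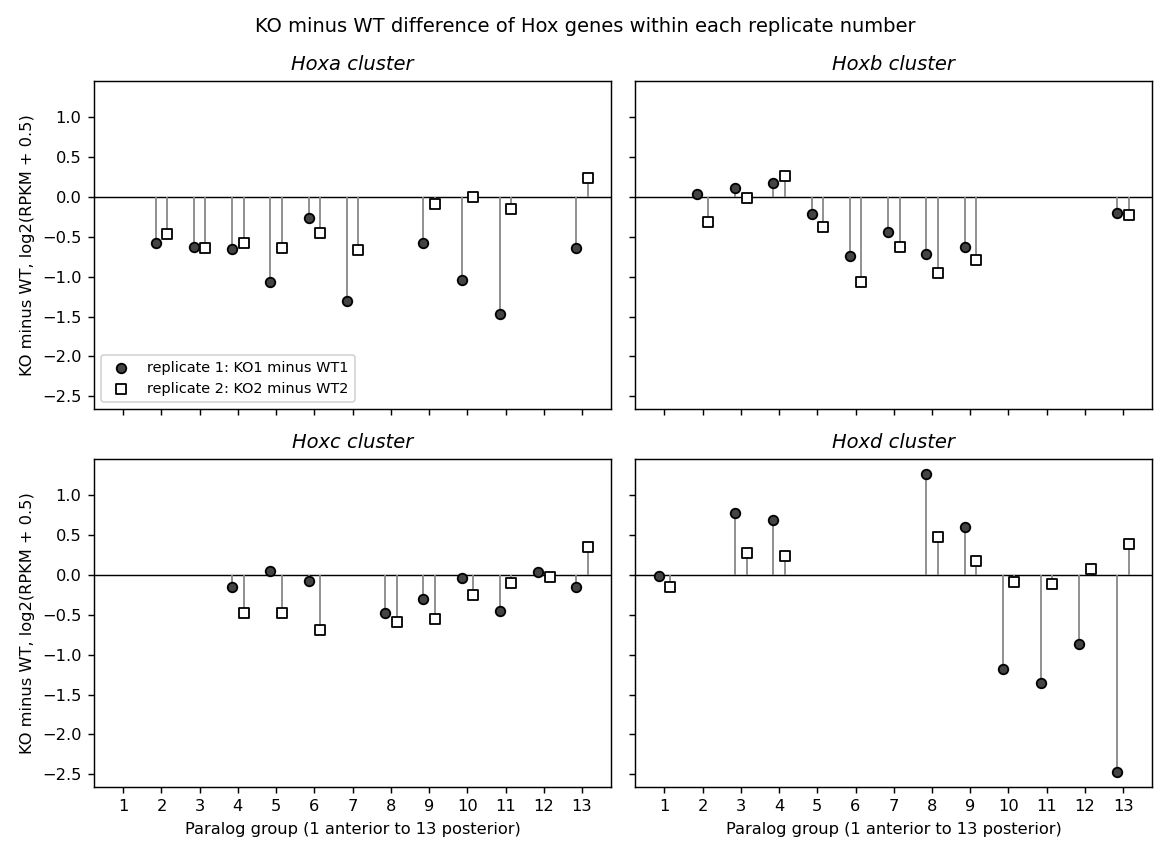
KO minus WT difference of log2(RPKM + 0.5) for Hox members listed in all libraries, within number 1 (filled circles) and number 2 (open squares), by cluster and paralog group. The central Hoxa members and Hoxb5 to Hoxb9 lie below 0 for both numbers, while Hoxa10, Hoxa11 and Hoxd10 to Hoxd13 lie far below 0 for number 1 only.

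All 4 central Hoxa genes were lower in KO in both numbers. Hoxa5, which is needed for the lung and for the border between neck and thorax, was at 11.0 and 13.3 RPKM in WT and 5.01 and 8.39 RPKM in KO. The KO libraries lay below both WT libraries, with log2 differences of -1.06 and -0.64 within numbers 1 and 2. The pooled difference was -0.85 (SE 0.34). Adding the number to the limma model gave an SE of 0.18 and an adjusted p of 0.0663. Hoxa7, a trunk patterning gene, was at 3.46 and 5.53 RPKM in WT and 1.10 and 3.28 RPKM in KO. Its KO level was 0.317 and 0.593 of WT within numbers 1 and 2, and the groups did not overlap, though KO2 came close to WT1. Hoxa4 went from 1.27 and 1.41 RPKM in WT to 0.625 and 0.784 RPKM in KO. Hoxa6, a low member, was at 0.292 and 0.891 RPKM in WT and 0.164 and 0.515 RPKM in KO, where the groups overlapped.

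Hoxa2 and Hoxa3, anterior genes of the cluster, were also lower in KO in both numbers. Hoxa3, a gene of the pharyngeal arches that form thymus and parathyroid, was at 4.68 and 4.24 RPKM in WT and 2.86 and 2.53 RPKM in KO. Its groups did not overlap and its differences were nearly the same in both numbers, -0.63 and -0.64. The transcript row of Hoxa3 spans Hoxa4, Hoxa5 and Hoxa6, so reads of these genes and Hoxa3 may not be fully separated. Hoxa2, which patterns the neural crest of the second pharyngeal arch, was at 1.21 and 2.69 RPKM in WT and 0.641 and 1.81 RPKM in KO. Each KO library was below the WT library of its number, but KO2 lay above WT1.

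In the Hoxb cluster the difference changed along the genes. The anterior Hoxb2 (13.1 and 9.72 RPKM in WT, 13.4 and 7.76 RPKM in KO) and Hoxb3 (4.26 and 5.01, 4.68 and 4.97 RPKM) were split between the numbers. The transcripts of Hoxb3 differed. The long one was lower in KO in both numbers (log2 differences of -0.48 and -0.22), and the short one was higher (0.4 and 0.1). Hoxb4 was at 3.51 and 3.69 RPKM in WT and 4.03 and 4.53 RPKM in KO, a pooled log2 difference of 0.22 (SE 0.26). From Hoxb5 to Hoxb9 all 5 genes were lower in KO in both numbers. Hoxb6 was at 10.1 and 6.05 RPKM in WT and 5.89 and 2.62 RPKM in KO, and KO1 lay just below WT2. It was the only member at least 2-fold lower in KO within number 2 (1 of 35, 2.86%, against 0.457% of all tested genes), with a log2 difference of -1.07. Hoxb7 was at 5.78 and 7.45 RPKM in WT and 4.12 and 4.62 RPKM in KO. Its genotypes did not overlap, whereas those of Hoxb5 did, at 3.07 and 2.20 RPKM in WT and 2.59 and 1.58 RPKM in KO.

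Hoxb8 and Hoxb9 hardly varied between the numbers and lay clearly apart between the genotypes. Hoxb8, a trunk gene also active in blood progenitors, was at 8.32 and 8.75 RPKM in WT and 4.90 and 4.30 RPKM in KO. Both KO libraries were well below both WT libraries, with a pooled log2 difference of -0.83 (SE 0.24). For Hoxb9, with the levels given earlier, the KO level was 0.638 and 0.569 of WT within the numbers, a pooled log2 difference of -0.71 (SE 0.22). With any single library left out, the pooled difference stayed between -0.91 and -0.74 for Hoxb8 and between -0.76 and -0.66 for Hoxb9.

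In the Hoxc cluster 6 of the 8 tested genes were lower in KO in both numbers and none was higher. Hoxc6, a gene of the upper thoracic region, was at 12.6 and 19.7 RPKM in WT and 12.0 and 12.1 RPKM in KO. The groups did not overlap, but KO1 was only slightly below WT1. Hoxc8 had KO minus WT differences of -0.47 and -0.59 on the log2 scale within numbers 1 and 2, and KO2 lay above WT1. Hoxc9 was at 4.02 and 8.52 RPKM in WT and 3.16 and 5.67 RPKM in KO, and Hoxc10, a hindlimb and lumbar gene, at 3.48 and 9.54 RPKM in WT and 3.36 and 7.94 RPKM in KO. For both, the libraries grouped by number and not by genotype. Hoxc4, at the anterior end, was at 4.15, 7.69, 3.70 and 5.38 RPKM, and Hoxc11 at 0.339, 0.656, 0.116 and 0.578 RPKM, both lower in KO in each number with overlapping groups. Hoxc5 (4.84, 5.42, 5.05 and 3.75 RPKM) and Hoxc13 (0.631, 0.333, 0.520 and 0.565 RPKM) were split between the numbers.

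By cluster, the summed Hoxa level was 0.480 of WT within number 1 and 0.792 within number 2. For Hoxb the ratios were 0.761 and 0.656, and for Hoxc 0.854 and 0.683. Hoxd alone was on both sides of 1, at 0.609 and 1.24. Its share of the summed Hox level was 6.65% in KO1 and 22.2% in KO2.

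**Figure D3:**
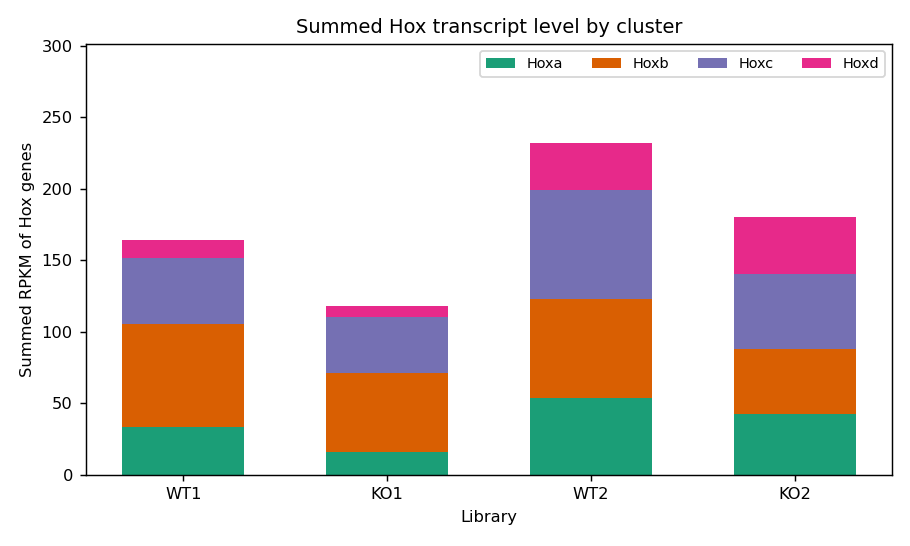
Stacked bars of the summed RPKM of Hox genes in each library, with the clusters as colours and the axis starting at 0. The Hoxa, Hoxb and Hoxc parts are smaller in each KO library than in the WT library of its number, while the Hoxd part is smallest in KO1 (7.84 RPKM) and largest in KO2 (40.0 RPKM).

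Of the 8 tested Hoxd genes, 4 were higher in KO in both numbers, 2 lower and 2 split. The 4 higher genes, Hoxd3, Hoxd4, Hoxd8 and Hoxd9, are neighbours in the middle of the cluster. Hoxd8 was at 1.36 and 7.95 RPKM in WT and 4.00 and 11.3 RPKM in KO, 2.94 and 1.42 times WT within numbers 1 and 2. Each KO library was above its own WT library, but KO1 was below WT2. Hoxd8 was the only member (1 of 35) at least 2-fold higher in KO within number 1 on the log2 scale, against 1.45% of all tested genes, and no member was within number 2 (0.475% of all). Hoxd3 was at 0.0756 and 0.767 RPKM in WT and 0.490 and 1.04 RPKM in KO, and Hoxd4 at 0.257 and 0.732 RPKM in WT and 0.721 and 0.959 RPKM in KO. The transcript row of Hoxd3 spans Hoxd4, so these values may share reads. Hoxd9 was at 0.645 and 2.99 RPKM in WT and 1.25 and 3.46 RPKM in KO. In all 4 genes both KO libraries were above the WT library of the same number, and the genotypes overlapped. Hoxd1, at the anterior end, was at 0.0203 and 0.322 RPKM in WT and 0.0175 and 0.241 RPKM in KO.

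The posterior genes Hoxd10 to Hoxd13, which pattern the limb and the genital and tail region, were much lower in KO1 and near WT in KO2. Hoxd13, the digit gene, was at 7.89 RPKM in WT1, 11.5 RPKM in WT2, 1.01 RPKM in KO1 and 15.2 RPKM in KO2. KO1 alone was low, 7.81-fold below WT1, and KO2 was the highest library. Hoxd12 was at 0.421, 2.42, 0.00649 and 2.59 RPKM, so that KO1 rests on 1 to 2 reads. Its WT1 to KO1 ratio was 64.9, with an exact 95% interval for counting error of 11.3 to 2600 at the fewest reads that fit the value. Hoxd11 was at 0.921, 2.17, 0.0565 and 1.98 RPKM, and Hoxd10 at 1.29, 3.54, 0.292 and 3.31 RPKM. KO1 was the lowest library for all 4 genes and KO2 was within 1.32 times WT2. The sum of Hoxd9 to Hoxd13 was 0.234 of WT in number 1 and 1.17 of WT in number 2.

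**Figure D4:**
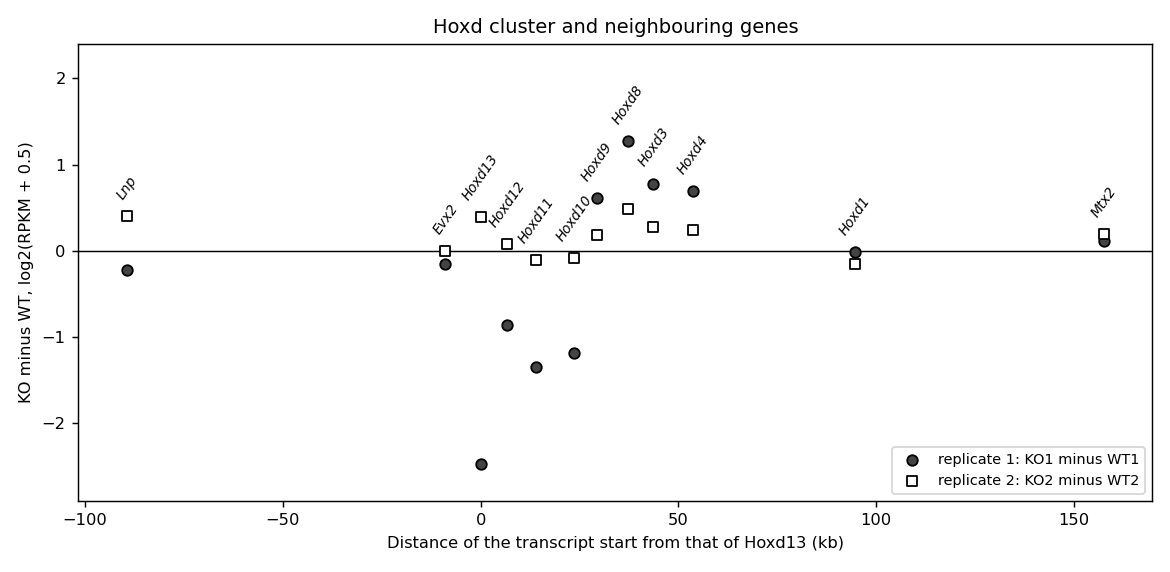
KO minus WT difference of log2(RPKM + 0.5) for the Hoxd genes and their neighbours, within number 1 (filled circles) and number 2 (open squares), against the distance in kb of each transcript start from that of Hoxd13. The 4 genes from Hoxd13 to Hoxd10 lie below 0 within number 1 and near 0 or above within number 2, and Hoxd9, Hoxd8, Hoxd3 and Hoxd4 lie above 0 within both.

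The promoters of these genes are shown because DNA methylation occurs at CG dinucleotides and Lsh is needed for it, and because members of the Hoxd cluster differed in opposite directions. RefSeq windows of 250 bases before the start site were at hand for 22 of the 39 members (24 windows, build GRCm38.p6). Bases are written 5′ to 3′ on the gene's strand, with CG in capitals. Hoxd13 (chr2:74667975-74668224, plus strand) and Hoxd12 (chr2:74674763-74675012, plus strand) are posterior members that were far below WT1 in KO1. Hoxd8 (chr2:74704365-74704614, plus strand) was higher in KO in both numbers, and Hoxa5 (chr6:52204588-52204837, minus strand) was lower in both.
Hoxd13: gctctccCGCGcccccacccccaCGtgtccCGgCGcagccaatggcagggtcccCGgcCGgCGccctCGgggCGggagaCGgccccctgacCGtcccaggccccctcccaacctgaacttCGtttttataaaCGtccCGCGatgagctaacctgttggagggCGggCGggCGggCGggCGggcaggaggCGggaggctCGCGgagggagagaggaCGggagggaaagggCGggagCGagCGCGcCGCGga
Hoxd12: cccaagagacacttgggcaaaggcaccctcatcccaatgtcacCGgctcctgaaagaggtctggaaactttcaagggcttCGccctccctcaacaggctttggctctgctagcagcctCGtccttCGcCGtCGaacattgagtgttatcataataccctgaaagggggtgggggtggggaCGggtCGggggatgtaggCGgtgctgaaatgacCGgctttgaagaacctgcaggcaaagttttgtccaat
Hoxd8: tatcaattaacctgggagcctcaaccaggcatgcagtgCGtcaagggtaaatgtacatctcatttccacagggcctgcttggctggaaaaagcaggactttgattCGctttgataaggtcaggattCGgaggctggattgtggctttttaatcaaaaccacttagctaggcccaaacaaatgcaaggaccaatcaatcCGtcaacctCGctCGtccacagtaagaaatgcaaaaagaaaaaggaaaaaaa
Hoxa5: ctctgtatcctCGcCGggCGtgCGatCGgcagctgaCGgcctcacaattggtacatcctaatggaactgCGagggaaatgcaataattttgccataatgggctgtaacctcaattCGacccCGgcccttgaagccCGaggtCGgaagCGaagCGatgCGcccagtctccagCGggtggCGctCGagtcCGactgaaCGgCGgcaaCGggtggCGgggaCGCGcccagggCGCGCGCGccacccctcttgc

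The windows hold 31 CG for Hoxd13, 10 for Hoxd12, 6 for Hoxd8 and 28 for Hoxa5. They were not matched to the starts of the measured transcripts. Relative to Hoxd13, the Hoxd8 window lies upstream of the start of the measured Hoxd8 transcript, so it may not be its promoter. Hoxd11, also low in KO1, has windows with 2 and 20 CG, and Hoxd9, higher in KO in both numbers, has 13. The 24 Hox windows ranged from 2 to 35 CG, with a median of 12.5 against 6 over all 32851 windows of the same length, and their median GC content was 58.6% against 52.4%. CCAAT, searched on both strands, was found in 58.3% of the Hox windows and 33.8% of all. Other searched sequences were TATAAA (16.7% and 12.4%), TTTATG (20.8% and 10.8%), TGATTNAT (8.33% and 2.82%) and AGGTCA (25.0% and 14.0%). A match of letters is not a binding site, and methylation of these windows is not analysed here.

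The posterior Hoxa genes had the same form as Hoxd10 to Hoxd13, lower in KO1 and near WT in KO2. Hoxa10, a gene of the thigh and the uterus, was at 4.81, 15.5, 2.09 and 15.5 RPKM. Hoxa11, which patterns the forearm and lower leg, was at 3.41, 6.67, 0.913 and 5.97 RPKM, and Hoxa13, its distal neighbour, at 0.434, 0.827, 0.0999 and 1.07 RPKM. In each, KO1 was the lowest library and the genotypes overlapped. Hoxa9, the most anterior of the 4, was at 1.05, 2.04, 0.539 and 1.89 RPKM. The sum of these genes was 0.375 of WT in number 1 and 0.977 in number 2. The antisense transcript Hoxa11as overlaps Hoxa11 and was at 2.72, 4.61, 0.414 and 4.84 RPKM, and because the reads' strand is not stated, the 2 genes cannot be fully separated. The transcripts of Hoxa10 differed: the short one was lower in KO in both numbers (log2 differences of -0.88 and -0.91), and the long one was lower in number 1 only (-0.92, and 0.41 in number 2).

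Of the 35 members, 7 were at least 2-fold lower in KO within number 1 (20.0%, against 1.24% of all tested genes). They were Hoxa5, Hoxa7, Hoxa10, Hoxa11, Hoxd10, Hoxd11 and Hoxd13. The 2-fold count is on the log2(RPKM + 0.5) scale, which understates low genes such as Hoxd12. A difference of KO against WT between the numbers could not be tested, since each number has 1 library per genotype. By paralog group, the KO to WT ratio of the summed level within number 1 was 0.233 for group 11, 0.156 for group 12 and 0.186 for group 13. Within number 2 it was 0.899, 1.06 and 1.31. Groups 5, 6 and 7 were low in both, at 0.668, 0.784 and 0.564 within number 1 and 0.655, 0.569 and 0.609 within number 2. Group 9 was about as low, at 0.682 and 0.653, and group 10 was at 0.599 and 0.937. Group 8 was at 0.791 and 0.770, and group 4 was nearer to 1, at 0.988 and 0.862. Group 2 was at 0.985 and 0.771, and group 3 at 0.891 and 0.854. Groups 5 to 9 were thus below 0.8 in both pairs of libraries, and groups 10 to 13 in number 1 only.

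The replicate number was itself a large contrast for these genes, and for all genes. With genotype as a term, limma called 24 of the 35 members between number 2 and number 1 (68.6%, against 47.7% of all tested genes), 20 of them higher in number 2 (57.1%, against 35.8%) and 4 lower (11.4%, against 11.9%). Hoxb2, Hoxb5 and Hoxb6 were among the lower. Higher were 8 of 11 in Hoxa, 5 of 8 in Hoxc and 7 of 8 in Hoxd, and none in Hoxb. The filter bears on these counts: Hoxa6, Hoxa13, Hoxc11, Hoxd3 and Hoxd12 passed it through number 2 alone, where they had to be higher. Among the 30 members at the filter level in at least 1 library of each number, 15 were called higher and 4 lower, against 32.6% and 11.9% of all such genes. Hoxa10 was higher by 2.11 (SE 0.25, limma adjusted p = 0.000425) on the log2 scale. Hoxc10 was higher by 1.23 (SE 0.17, adjusted p = 0.000218). Hoxd8 was higher by 1.78 (SE 0.21, adjusted p = 0.000129), and Hoxd13 missed the threshold at 1.95 (SE 1.15, adjusted p = 0.362). Both number 2 libraries were above both number 1 libraries for 20 of 35 members (57.1%, against 53.3% of all tested genes), a share near the background. In Hoxd it was 8 of 8. These counts include the members that passed the filter through number 2 alone and had to be higher there, Hoxd3 and Hoxd12 among them. Both number 2 libraries were below both number 1 libraries for 3 members, against 21.2% of all. With median-ratio scaling the median of all genes moved by -0.29, and 16 of 35 Hox members were called higher and 4 lower, against 21.5% and 24.0% of all genes. The share of calls that were higher over all genes went from 75.0% to 47.3%. Without the genotype term 15 of 35 members were called, against 41.7% of all genes, a share near the background. In that model 3 members were called without WT2, 5 without KO2, 16 without KO1 and 21 without WT1. That contrast joins the replicate number to any difference in the embryos, culture or processing of the libraries, which cannot be told apart.

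**Figure D5:**
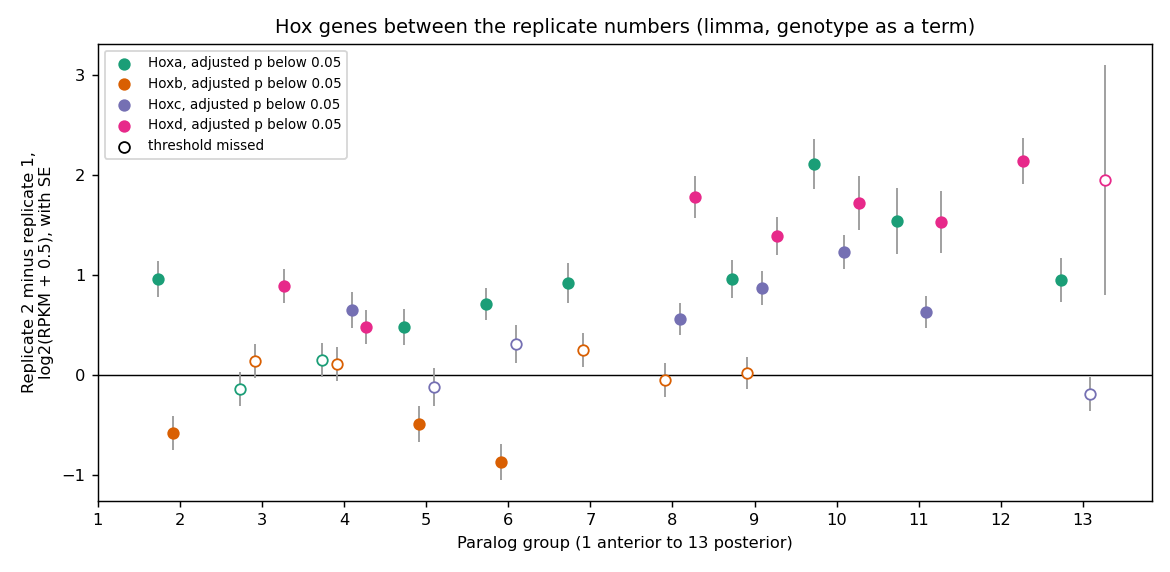
Number 2 minus number 1 difference of log2(RPKM + 0.5) for tested Hox members with the SE, from limma with genotype as a term. Most Hoxa, Hoxc and Hoxd members lie above 0, whereas the Hoxb members lie around or below 0.

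Other positional transcription factors of limb and trunk mesenchyme did not share one pattern. Of 31 listed, 25 passed the filter, 13 were lower in KO in both numbers and 3 higher. Over all tested genes the shares were 31.4% lower and 22.5% higher. The list's median KO minus WT difference was -0.22 within number 1 and -0.24 within number 2. Not all members were low in KO1: En1 was at 6.22, 11.5, 11.3 and 9.28 RPKM. Pitx1, the hindlimb determinant, was at 4.30, 11.4, 0.904 and 7.15 RPKM in the same order of libraries, and Tbx4, its hindlimb target, at 1.39, 3.57, 0.158 and 2.95 RPKM. Both were lowest in KO1, as the posterior Hoxa genes and Hoxd10 to Hoxd13 were. Tbx5, the forelimb counterpart of Tbx4, was at 0.271, 1.72, 0.280 and 1.65 RPKM, so KO1 was close to WT1. Tbx2, a limb and heart regulator, was the only gene of that list called with the number as a term, at 1.60, 4.47, 0.264 and 1.62 RPKM and a log2 difference of -1.34 (SE 0.18, limma adjusted p = 0.00736). Pitx1 and Tbx4 were chosen for naming after their values were seen. En1 and Tbx5 were not called between the genotypes and were not among the most abundant of the list, so they too were named outside the rule for list genes. Their part in the Hox result was not tested.

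Among markers of other cell types, the summed level of 13 blood and macrophage genes was 60.8 RPKM in WT1, 177 in WT2, 8.40 in KO1 and 86.5 in KO2. Of 11 tested, 10 were lower in KO in both numbers, against 31.4% of all tested genes. With the number as a term 4 were called lower, against 0.296% of all tested genes. None of the 13 was listed at 0 in any library. The genes called lower were Laptm5, Fcer1g, Cd14 and C1qc. Skeletal muscle genes summed to 44.2, 43.9, 16.9 and 52.2 RPKM, with Myod1, Myog, Myf5, Pax7, Myh3 and Ckm at 0 in some library. Desmin (Des) was at 23.7, 31.5, 2.38 and 38.0 RPKM and so followed the pattern of Hoxd13. Actc1, the other tested muscle gene, did not, at 20.5, 11.8, 14.5 and 12.2 RPKM. Myod1, Myog and Myh3, which were not tested, were higher in KO in both numbers. Epithelial markers summed to 18.6, 18.8, 7.93 and 6.24 RPKM, lower in both KO libraries, with Krt5 and Esrp1 at 0 in some library. Much of that sum was Krt19, at 13.4, 9.78, 3.56 and 2.70 RPKM. Of 10 epithelial markers 4 were tested, of which 3 were lower in KO in both numbers. Krt18 was split, at 1.81, 2.58, 1.97 and 0.939 RPKM. Epcam, at most 0.151 RPKM and not tested, was higher in KO in both numbers. Krt19 and Krt7, the vascular receptor gene Flt1, the neuronal tubulin gene Tubb3 and the cartilage collagen gene Col2a1 were called with the number as a term, Flt1 and Tubb3 higher and the others lower. In that fit 0.377% of all tested genes were called higher and 0.296% lower. Endothelial genes summed to 3.74, 3.12, 5.78 and 5.22 RPKM, neural genes to 173, 82.5, 198 and 111 RPKM and cartilage genes to 24.9, 48.5, 29.7 and 50.8 RPKM. Much of the endothelial sum was Flt1, at 2.11, 1.21, 5.17 and 2.87 RPKM. Of the 3 tested endothelial genes, Flt1 was higher in KO in both numbers and Emcn was split. Kdr was lower in both, at 0.918, 1.05, 0.258 and 0.622 RPKM. Listed at 0 in some library were Tie1 among the endothelial, Elavl3 among the neural and Comp and Matn1 among the cartilage markers. The part of these cell types in the Hox differences was not tested.

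Genes that act with or on Hox genes were measured in the same libraries. Of the TALE cofactors that bind DNA with Hox proteins, 8 of 9 passed the filter and none was called between genotypes. Pbx2 was at 5.24, 10.0, 4.60 and 9.06 RPKM and Meis1 at 4.26, 9.58, 5.28 and 9.78 RPKM. Of 29 listed Polycomb subunits, 27 were tested, 5 were lower and 7 higher in both numbers, and none was called. Ezh2, the H3K27 methyltransferase and chosen after its values were seen, was at 1.28, 1.72, 0.591 and 1.63 RPKM. Of the trithorax and H3K27 demethylase genes, 12 of 14 were tested and none was called. Among 18 genes of the pathway of retinoic acid, a signal that acts on anterior Hox genes, 14 were tested. Of these, 4 were lower and 6 higher in both numbers, and none was called. The most abundant, Crabp1, was at 52.9, 108, 65.4 and 132 RPKM. Of 12 upstream axial regulators only 5 passed the filter, 1 lower and 2 higher in both numbers, with none called.

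Neighbouring genes outside the clusters showed whether the Hoxd difference extended past them. Lnp, on the posterior side of Hoxd, was at 3.37, 2.98, 2.81 and 4.10 RPKM, and Mtx2, on the anterior side, at 11.0, 16.4, 12.0 and 18.8 RPKM. Neither was far below WT1 in KO1, where Hoxd10 to Hoxd13 were. Evx2, which lies 8.89 kb from Hoxd13 and is often active with it, was at 0.0530, 0.0991, 0 and 0.0977 RPKM, too low to test. Skap2 beside Hoxa was at 4.02, 4.22, 3.76 and 5.58 RPKM, and Evx1 on the other side of Hoxa reached at most 0.0335 RPKM. Beside Hoxb, Atp5g1 was at 12.1, 11.1, 9.86 and 11.1 RPKM and Ube2z, farther out, at 43.9, 37.7, 40.0 and 36.6 RPKM. Igf2bp1, farther still, was at 8.25, 6.74, 6.49 and 5.99 RPKM, so both KO libraries lay below both WT libraries. Snf8, on the same side, was split between the numbers. Smug1 beside Hoxc was at 3.79, 4.04, 3.95 and 3.59 RPKM. None of the neighbours within 200 kb was called between the genotypes. The microRNA rows inside the clusters (Mir10a, Mir10b, Mir196a-1, Mir196a-2, Mir196b and Mir615) were listed at 0 in number 1 and had no row in number 2.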

How the data were processed

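RNA was measured in 4 libraries of primary MEFs, WT and KO with replicate numbers 1 and 2. The deposited values are RPKM per RefSeq transcript, computed by the authors. Cufflinks is named in the deposited readme, and mm9 and Partek in the submitters' processing notes. How reads were aligned, and how those matching several places were handled, is not given in the sources used here. Depth was read from the smallest steps of RPKM at olfactory receptor loci, whole within 0.02 of a read at 95.7% or more of loci.

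Transcript rows were summed per symbol. A gene was tested where at least 2 libraries reached 0.5 RPKM, on log2(RPKM + 0.5), a scale that understates changes of low genes, with limma 3.58.1 (lmFit, eBayes with trend and robust) in R 4.3.3, genotype only, two-sided, with Benjamini-Hochberg adjustment over all 11149 genes and a threshold of 0.05. A second model adds the replicate number to genotype, with 9.68 prior degrees of freedom and 1 residual degree of freedom per gene. Number 2 was compared with number 1 with genotype as a term. The code was tested on simulated data. Tables were handled in Python 3.11.15 with pandas 2.3.3 and figures drawn with matplotlib 3.10.9.

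Members and lists were chosen with earlier results of these data known. Values per library are given for the 4 highest members of each cluster, the 3 tested members with the largest same-sign change and members called in any fit. Values of Hoxa4, Hoxb3, Hoxb4, Hoxb7, Hoxc5, Hoxc13 and Hoxd1 fall outside that rule and were added after they were seen. Named list genes are those called between the genotypes or the 3 most abundant of a list, unless said otherwise. Not every gene that met this rule is named. En1, Tbx5, Fn1, Thy1, Lum, Pdgfra and Dcn were named outside it. Named neighbours are those called or nearest, with Ube2z, Igf2bp1 and Snf8 beside Hoxb added. Alternatives changed the pseudocount, filter, scaling, transcript summary, replicate term or left out a library. Promoter sequences and coordinates of GRCm38.p6 come from RefSeq and were not joined to mm9 coordinates. Values of 1 Hox member and 1 list gene are not reported here and are not drawn.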

Additional observations from a re-analysis of the deposited data

How the results depend on the processing

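With genotype alone, limma called 0 genes under every setting tried and with each library left out (0 to 0). With the replicate number as a block the count of called genes was 75, with a pseudocount of 0.1 it was 37, with a pseudocount of 1 it was 59, with a 1 RPKM filter 70, with median-ratio scaling 148, with the highest transcript row 3 and with no filter 0. The block called 0 Hox members, except 1 with the 1 RPKM filter (Hoxb6) and 4 with median-ratio scaling (Hoxa5, Hoxa7, Hoxb6 and Hoxb8, all lower). Deviations of same-numbered libraries from their genotype's mean correlated at 0.875, but with 2 pairs and no label saying what a number marks, the pairing is only a hint. Between the numbers, 15 members were called without the genotype term (41.7% of all genes). The Hox median difference was -0.54 with a pseudocount of 0.1, -0.52 with a 1 RPKM filter and from -0.69 to -0.01 with a library left out. The count of members lower within both numbers was 19 to 23 in all settings.

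Leaving out single libraries gave pooled log2 differences from -1.83 to 0.80 for Hoxa10, -1.91 to 0.29 for Hoxa11, -0.51 to 0.24 for Hoxb2, -0.92 to 0.07 for Hoxc9, -0.82 to 0.52 for Hoxc10, -0.22 to 1.97 for Hoxd8, -0.41 to 1.20 for Hoxd9, -1.76 to 0.50 for Hoxd10, -1.81 to 0.35 for Hoxd11 and -2.73 to 0.65 for Hoxd13; the cause was not tested. With median-ratio scaling the difference between numbers turned negative for Hoxa4 (-0.07), Hoxb3 (-0.16), Hoxb4 (-0.19), Hoxb7 (-0.06), Hoxb9 (-0.31) and Hoxc6 (-0.01), none of them called. With both terms, leaving out a library leaves no residual degrees of freedom. Added after seeing the data, the model with the number alone and a library left out called 2088 (without WT2), 2705 (without KO2), 4049 (without KO1) and 4509 (without WT1) genes and 3, 5, 16 and 21 Hox members. The lone library is there assumed to vary like the others. The difference between numbers then changed sign for Hoxa3 (0.17 and 0.18), Hoxa4 (-0.14 and -0.17), Hoxa5 (-0.06), Hoxb4 (-0.02), Hoxb7 (-0.07), Hoxb8 (0.30 and 0.42), Hoxb9 (-0.38 and -0.30), Hoxc5 (0.12) and Hoxc6 (-0.03). RPKM depth limits Hoxd12 in KO1 to 1 to 2 reads.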
